A study of Homo sapiens with 7 samples.

Results

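The genes described here are 40 genes of 2 germline programmes, the piRNA pathway and meiosis, chosen by symbol from a list. That list was drawn up with earlier results of these data known, so counts of its members describe these genes alone. All 40 were found among the 59251 rows of the deposited table of gene counts, and 35 passed the filter on low counts. They were read in H9 cells, an established line of human embryonic stem cells, kept in the naive-state medium RSeT. The DJL1 group (n = 3 libraries) was transfected with the guide RNA plasmids that the labels call DJL1, and the CTRL group (n = 4 libraries) was the control transfection. Both groups carried the same additions, 10 nM DZNep, an inhibitor of S-adenosylhomocysteine hydrolase that lowers histone methylation, and 5 nM TSA (trichostatin A), a histone deacetylase inhibitor. For the initial 16 h both also had CEPT, a survival cocktail of Chroman 1 (50 nM), Emricasan (5 µM), trans-ISRIB (0.7 µM) and a polyamine supplement, and RNA was taken 48 h after transfection. By its title the series concerns LINE1 elements at the distal junctions of ribosomal DNA repeats. Which protein the guides bring to DNA, and what the CTRL guides match, is not given in the sources used here, and what CTRL controls for is therefore known by its label alone. All values come from cells under both chromatin inhibitors, a limit of both groups as models of untreated cells in this medium. The naive state is taken from the description of the medium and was not tested here.

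PIWI-interacting RNAs (piRNAs) are small RNAs of germ cells that guide PIWI-clade Argonaute proteins to transposon transcripts, LINE1 among them. Precursors are made and loaded in cytoplasmic germ granules held together by proteins with Tudor domains, which bind methylated arginines of the PIWI proteins. Meiosis uses its own cohesin subunits, a synaptonemal complex that zips homologous chromosomes together, and a dedicated recombination machinery that makes and repairs programmed DNA breaks. In somatic cells many of these genes are kept silent by DNA methylation at their promoters and by Polycomb-type repressors, and naive pluripotent cells carry little DNA methylation. The DNA methylation of the cells read here is not given by these RNA counts.

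Total counts ran from 34634882 to 37795742 in DJL1 libraries and from 62277489 to 76691997 in CTRL libraries, a gap in depth between the groups. Libraries of a group differed among themselves: edgeR's biological coefficient of variation, which may be technical here, was 13.8% within DJL1 and 3.46% within CTRL. The labels give no batch, so a difference in library preparation and the transfection cannot be told apart. Markers of the labelled cell type were abundant, POU5F1 (OCT4) at 5354 CPM in DJL1 and 5324 CPM in CTRL on average, where CPM is counts per 1000000 counts of the library after TMM scaling. The summed level of 12 pluripotency markers was 9801 to 10970 CPM in DJL1 and 12340 to 12590 CPM in CTRL. Of 12 spermatid markers, PRM2, TNP1, TNP2 and ODF1 had 0 counts in all 3 DJL1 libraries, and TNP2 and ODF1 also had 0 in all 4 CTRL libraries. A count of 0 allows up to 3 counts, or 0.0783 to 0.0856 CPM in a DJL1 library and 0.0395 to 0.0483 CPM in a CTRL library, counting error only.

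Most of the tested members were higher in DJL1 cells. Of the 35 tested members 22 were higher, 1 was lower (DMC1) and 12 did not pass at 0.05 in edgeR's quasi-likelihood test, adjusted by Benjamini-Hochberg over all 26062 tested genes. Over all tested genes 27% were called higher and 25.1% lower, or 52% in either direction. The members' median log2 fold change (DJL1 over CTRL) was 0.84, against 0.01 for all tested genes. Increases of at least 2-fold were called for 14 members, and 10.7% of all tested genes had a call of that size and direction. No member was called lower by at least 2-fold, which 2.2% of all genes were. In 25 of the 35 the DJL1 and CTRL values did not overlap, against 53.6% of all tested genes. The summed level of all 40 members was 354, 358 and 344 CPM in the DJL1 libraries 1 to 3, against 250, 247, 256 and 253 CPM in the CTRL libraries 1 to 4. In a bulk sample a change in the number of cells that express a gene and a change in its RNA per cell cannot be told apart.

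The filter bears on these counts. PIWIL1 and STRA8 passed it through their DJL1 libraries alone and so could hardly be called other than higher, while NANOS3 and SOHLH2 passed through CTRL alone. Of the 7 members with a mean level under 1 CPM these 2, PIWIL1 and STRA8, were the ones called higher, so that their share says nothing about members of that level. Between 1 and 8 CPM the share called higher was 72.2% of 18 members, against 36.1% of 6546 genes. Above 8 CPM it was 70% of 10 members, against 27.3% of 11811 genes, and in that range 0 of the 10 members and 42.3% of all genes were called lower. Leaving out DJL1 replicate 3 gave 25 members higher, with TEX15, NANOS2 and SYCE3 added, and 4 lower, with REC8, STAG3 and SYCE2 added. SYCE3 was tested there through its DJL1 libraries alone and so could hardly be called other than higher. Leaving out DJL1 replicate 1 or 2 gave 2 lower, with SOHLH2 or SYCE2 added. The labels do not say whether the libraries are separate cultures, so p-values measure the spread between these libraries.

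**Figure D1:**
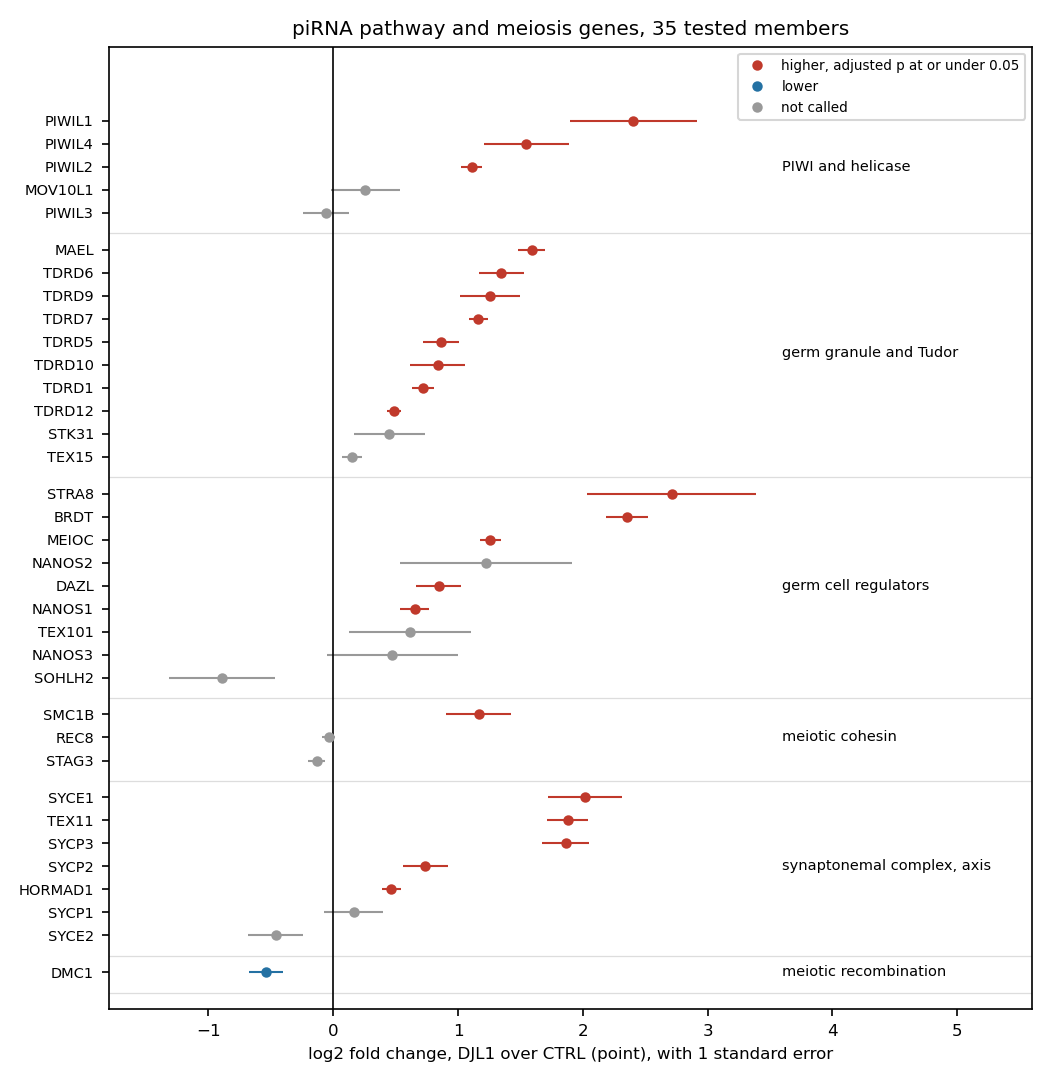
Log2 fold change of DJL1 over CTRL (horizontal axis) for the 35 tested members, grouped by role, with bars of 1 standard error and colour for the call at an adjusted p of 0.05. The 22 members called higher lie between 0.47 and 2.71, and DMC1 at -0.54 is the 1 member called lower.

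**Figure D2:**
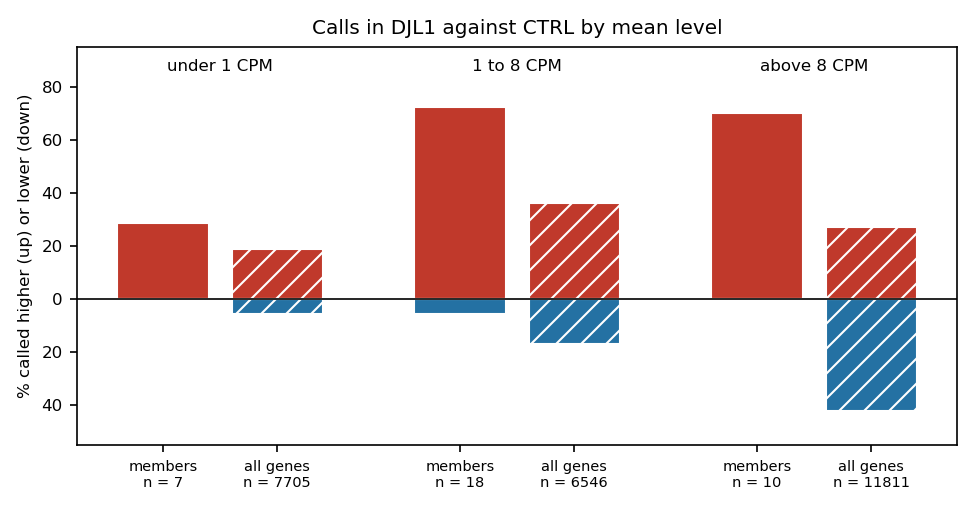
Share of genes called higher (upward bars) or lower (downward bars) in DJL1 against CTRL, in percent, for members (plain) and all tested genes (hatched), by mean level over the groups. The 2 members called under 1 CPM are PIWIL1 and STRA8, which passed the filter through DJL1 alone, and above 8 CPM 70% of members and 27.3% of all genes were called higher.

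PIWI proteins and their helicase partner came out unevenly, with 3 of 5 higher and 0 lower. The 3 include PIWIL1, which passed the filter through DJL1 alone. PIWIL2, a PIWI protein of spermatogonia and fetal germ cells whose mouse counterpart takes part in the amplification of piRNAs, was the most abundant of the 4 PIWI genes per length of exon. It had 16.1, 16.3 and 17.9 CPM in DJL1 libraries 1 to 3, against 7.22, 8.34, 7.69 and 7.83 CPM in CTRL libraries 1 to 4. Every DJL1 library lay well above the highest CTRL library, and the log2 fold change was 1.11 ± 0.08 SE, adjusted p = 2.5e-08. PIWIL4, whose mouse counterpart acts in the nucleus on transposon DNA methylation, had 2.19, 2.54 and 0.863 CPM in DJL1 and 0.401, 0.552, 0.788 and 0.803 CPM in CTRL (log2 fold change 1.55 ± 0.34 SE, adjusted p = 0.00125). DJL1 replicate 3 lay just above the highest CTRL library, far below the other 2 DJL1 libraries. In GENCODE 29 its exons share 15% of their bases with FUT4 on the same strand, which was not called (log2 fold change 0.09). PIWIL1, the PIWI protein of later spermatogenesis, was at a few reads per library, with counts of 38, 9 and 30 in DJL1 and 6, 8, 10 and 10 in CTRL (log2 fold change 2.41 ± 0.51 SE, adjusted p = 0.000945). PIWIL3, a PIWI gene expressed in human oocytes, averaged 1.73 ± 0.135 CPM (SD, n = 3) in DJL1 and 1.79 ± 0.216 CPM (SD, n = 4) in CTRL and did not pass the test (log2 fold change -0.05 ± 0.18 SE, adjusted p = 0.828). MOV10L1, the germline RNA helicase that prepares piRNA precursors in mouse, had 1.85, 0.913 and 0.863 CPM in DJL1 and 0.947, 1.17, 1.01 and 0.924 CPM in CTRL, so that its value rested on DJL1 replicate 1 (log2 fold change 0.26 ± 0.28 SE, adjusted p = 0.467, and -0.20 without that library).

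Germ granule and Tudor genes were mostly higher. Of 10 tested members 8 were higher and 0 lower, and all 10 fold changes were positive. MAEL, a germ granule protein needed for LINE1 silencing in mouse testis, lies on chromosome 1 (166975582 to 167022214, GRCh38.p14). It had 13.7, 18.1 and 14 CPM in DJL1 and 5.47, 4.89, 4.71 and 5.16 CPM in CTRL (log2 fold change 1.59 ± 0.11 SE, adjusted p = 1.18e-08). The lowest DJL1 library was well above the highest CTRL library. TDRD7, a Tudor protein of germ granules that the lens also uses, had 26.4, 27.4 and 23.0 CPM in DJL1, against 11.1, 11.9, 12.1 and 10.7 CPM in CTRL (log2 fold change 1.16 ± 0.08 SE, adjusted p = 8.25e-09). TDRD6, a scaffold of the chromatoid body in mouse spermatids, had 4.38, 5.19 and 4.32 CPM in DJL1 and 1.97, 1.25, 2.01 and 2.06 CPM in CTRL (log2 fold change 1.35 ± 0.18 SE, adjusted p = 1.24e-05). TDRD9, the Tudor helicase that works with the nuclear PIWI protein in mouse, had 1.33, 1.80 and 1.65 CPM in DJL1 and 0.706, 0.723, 0.708 and 0.515 CPM in CTRL (log2 fold change 1.26 ± 0.24 SE, adjusted p = 0.00042). For TDRD7, TDRD6 and TDRD9 the groups did not overlap, and the increase was at least 2-fold.

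The increases of the other Tudor genes were smaller, among them the most abundant one. TDRD12, a Tudor helicase needed for secondary piRNA production in mouse, had 53.6, 46.3 and 49.6 CPM in DJL1 and 35, 34.8, 35.5 and 37.2 CPM in CTRL (log2 fold change 0.49 ± 0.05 SE, adjusted p = 2.38e-06). TDRD1, the Tudor partner of the mouse PIWIL2 protein, had 23.7, 23.6 and 18.4 CPM in DJL1, against 12.5, 12.8, 14.2 and 13.9 CPM in CTRL (log2 fold change 0.72 ± 0.09 SE, adjusted p = 5.4e-06). TDRD5, which in mouse helps assemble the chromatoid body, had 5.53, 5.28 and 4.15 CPM in DJL1 and 3.13, 2.39, 2.67 and 2.79 CPM in CTRL (log2 fold change 0.86 ± 0.15 SE, adjusted p = 0.000135). DJL1 replicate 3 was the lowest of its group for TDRD1 and TDRD5 and still stood above all CTRL libraries. TDRD10 had 2.11, 2.94 and 1.86 CPM in DJL1 and 1.32, 1.14, 1.64 and 1.06 CPM in CTRL (log2 fold change 0.84 ± 0.22 SE, adjusted p = 0.00459). STK31, a protein with a Tudor and a kinase-like domain, averaged 1.07 ± 0.281 CPM (SD, n = 3) in DJL1 and 0.788 ± 0.194 CPM (SD, n = 4) in CTRL and was not called (log2 fold change 0.45 ± 0.28 SE, adjusted p = 0.203). TEX15, which in mouse acts in meiotic repair and in transposon methylation, had 30.0, 28.0 and 22.4 CPM in DJL1 and 24.9, 22.8, 24.6 and 24.6 CPM in CTRL. Its groups overlapped, and its log2 fold change of 0.15 ± 0.08 SE, adjusted p = 0.141 became a call without DJL1 replicate 3 (0.25, adjusted p = 0.00295).

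**Figure D3:**
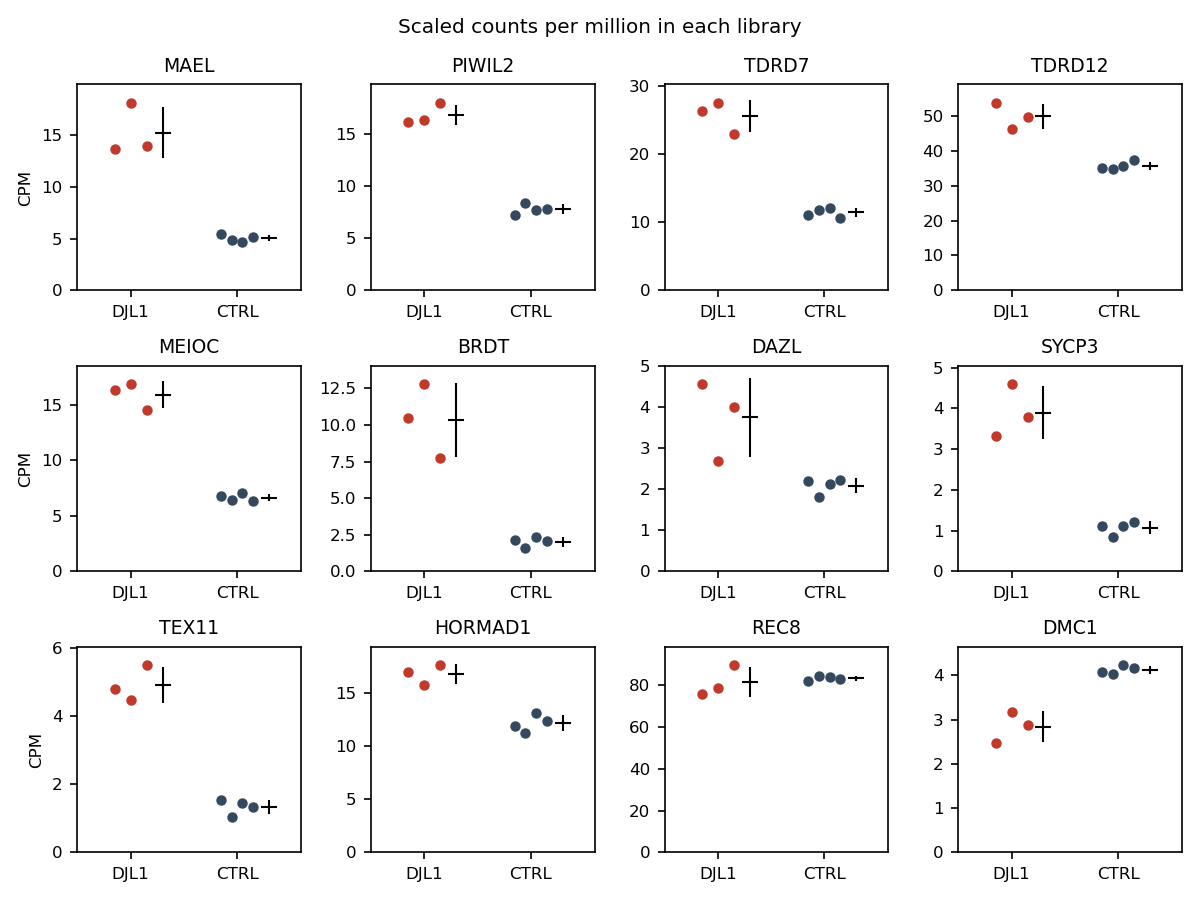
TMM-scaled CPM (vertical axis, from 0) of 12 members in the 3 DJL1 and 4 CTRL libraries (points), with the mean and SD beside each group. The groups separate in every panel apart from REC8, and DMC1 is the panel in which DJL1 lies below CTRL.

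Regulators of germ cell identity and of entry into meiosis were higher in 5 of 9 cases, with 0 lower. The 5 include STRA8, which passed the filter through DJL1 alone. BRDT, the testis bromodomain protein that reads acetylated histones, lies on chromosome 1 (91949371 to 92014428, GRCh38.p14) and had 10.4, 12.8 and 7.74 CPM in DJL1, against 2.12, 1.56, 2.33 and 2.09 CPM in CTRL. Its log2 fold change of 2.35 ± 0.17 SE, adjusted p = 2.08e-08 was the highest among members above 1 CPM in both groups. MEIOC, which in mouse binds YTHDC2 and keeps germ cells in meiotic prophase, had 16.3, 16.8 and 14.5 CPM in DJL1 and 6.77, 6.41, 7.03 and 6.38 CPM in CTRL (log2 fold change 1.26 ± 0.08 SE, adjusted p = 1.08e-08). DAZL, an RNA-binding activator of germ cell translation, had 4.57, 2.68 and 4.02 CPM in DJL1 and 2.2, 1.81, 2.12 and 2.24 CPM in CTRL (log2 fold change 0.85 ± 0.18 SE, adjusted p = 0.000972), with DJL1 replicate 2 nearest to the CTRL range. NANOS1, a zinc finger repressor of translation, had 7.44, 9.07 and 9.14 CPM in DJL1 and 6.07, 5.83, 5.12 and 4.72 CPM in CTRL (log2 fold change 0.65 ± 0.12 SE, adjusted p = 0.000232). These 4 genes had no overlap between the groups.

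STRA8, the factor that retinoic acid induces at the start of meiosis, was close to the floor in both groups, with counts of 8, 25 and 9 in DJL1 and 7, 2, 2 and 4 in CTRL. Its log2 fold change was 2.71 ± 0.67 SE, adjusted p = 0.00319, and DJL1 replicate 2 held most of its DJL1 reads. Without that library the log2 fold change was 1.93 (adjusted p = 0.0495), and without CTRL replicate 1 it was 3.22 (adjusted p = 0.00256). The gene shares 28.8% of its exon bases with AC009542.2 on the opposite strand, as MEIOC shares 21.2% with AC091152.2. NANOS2, a male germ cell factor, had counts of 21, 15 and 1 in DJL1 and 14, 13, 5 and 6 in CTRL and was not called (log2 fold change 1.22 ± 0.69 SE, adjusted p = 0.154); without DJL1 replicate 3 it was (1.76, adjusted p = 0.0163). NANOS3, which protects primordial germ cells, had counts of 4, 15 and 19 in DJL1 and 15, 17, 20 and 14 in CTRL (log2 fold change 0.47 ± 0.52 SE, adjusted p = 0.476). TEX101, a surface glycoprotein of germ cells, averaged 0.436 ± 0.167 CPM (SD, n = 3) in DJL1 and 0.286 ± 0.121 CPM (SD, n = 4) in CTRL (log2 fold change 0.61 ± 0.49 SE, adjusted p = 0.318). SOHLH2, a transcription factor of spermatogonia and early oocytes, had 0.470, 0.428 and 0.108 CPM in DJL1 and 0.642, 0.513, 0.676 and 0.666 CPM in CTRL. The groups did not overlap, but it did not pass the test (log2 fold change -0.89 ± 0.42 SE, adjusted p = 0.0903), and without DJL1 replicate 1 it did (-1.24, adjusted p = 0.0429). Its exons share 43.2% of their bases with the readthrough gene CCDC169-SOHLH2, and CCDC169 upstream was lower in DJL1 (log2 fold change -0.55).

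Meiotic cohesin subunits did not move together. REC8, the kleisin that holds sister chromatids in meiosis, was the most abundant member per length of exon in both groups. It had 75.9, 78.9 and 89.6 CPM in DJL1 and 82.0, 84.6, 84.1 and 83.1 CPM in CTRL, and all CTRL values lay within the DJL1 range (log2 fold change -0.03 ± 0.05 SE, adjusted p = 0.61). STAG3, the meiotic SA subunit, had 14.5, 14.6 and 15.8 CPM in DJL1 and 15.6, 16.8, 16.5 and 16.6 CPM in CTRL, with DJL1 replicate 3 just inside the CTRL range (log2 fold change -0.13 ± 0.07 SE, adjusted p = 0.119). Without DJL1 replicate 3, the library highest in both genes, REC8 and STAG3 were called lower at log2 fold changes of -0.12 and -0.18 (adjusted p = 0.0215 and 0.0386). The exons of STAG3 share 18.7% of their bases with PVRIG on the same strand (lower, -0.32), and the STAG3-like pseudogenes could share its reads. SMC1B, the meiotic SMC subunit, was the 1 cohesin member called, with 1.57, 1.51 and 1.89 CPM in DJL1 and 0.963, 0.671, 0.837 and 0.485 CPM in CTRL (log2 fold change 1.17 ± 0.26 SE, adjusted p = 0.00139).

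In the synaptonemal complex and chromosome axis 5 of 7 tested members were higher and 0 lower. SYCP3, the axial element protein, lies on chromosome 12 (101728648 to 101739462, GRCh38.p14) and had 3.31, 4.59 and 3.78 CPM in DJL1, against 1.12, 0.842, 1.11 and 1.21 CPM in CTRL (log2 fold change 1.86 ± 0.19 SE, adjusted p = 6.86e-07). TEX11, an X-linked factor of crossover formation, had 4.80, 4.48 and 5.50 CPM in DJL1 and 1.54, 1.05, 1.45 and 1.33 CPM in CTRL (log2 fold change 1.88 ± 0.17 SE, adjusted p = 1.84e-07). SYCE1, a central element protein, had 1.64, 2.65 and 2.13 CPM in DJL1 and 0.481, 0.302, 0.563 and 0.772 CPM in CTRL (log2 fold change 2.02 ± 0.29 SE, adjusted p = 3.25e-05). The fitted increases were 3.64-fold for SYCP3, 3.68-fold for TEX11 and 4.05-fold for SYCE1, with every DJL1 library above every CTRL library. SYCP2, the partner of SYCP3, had 3.50, 2.82 and 2.21 CPM in DJL1 and 1.89, 1.6, 1.69 and 1.64 CPM in CTRL (log2 fold change 0.74 ± 0.18 SE, adjusted p = 0.00298). HORMAD1, which marks unsynapsed axes and is among the most abundant members, had 17, 15.7 and 17.6 CPM in DJL1 and 11.9, 11.2, 13.1 and 12.3 CPM in CTRL (log2 fold change 0.47 ± 0.08 SE, adjusted p = 9.84e-05).

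The remaining tested members of the complex were not called. SYCP1, the transverse filament that bridges the axes, averaged 1.41 ± 0.401 CPM (SD, n = 3) in DJL1 and 1.25 ± 0.189 CPM (SD, n = 4) in CTRL (log2 fold change 0.17 ± 0.24 SE, adjusted p = 0.588), with DJL1 replicate 1 the highest library at 1.85 CPM and a log2 fold change of -0.10 without it. SYCE2, another central element protein, had 1.04, 2.14 and 2.19 CPM in DJL1 and 2.23, 2.70, 2.35 and 2.53 CPM in CTRL and was not called (log2 fold change -0.46 ± 0.22 SE, adjusted p = 0.0944). It had no overlap between the groups and was called lower without DJL1 replicate 2, without DJL1 replicate 3 and with no filter. Strand and gene overlap limit 3 of these values, because the strand setting of the counting is not given. In GENCODE 29 the exons of SYCE1 share 53.3% of their bases with CYP2E1 on the opposite strand, which was also higher (log2 fold change 0.89). Those of SYCE2 share 24.1% with GCDH, which was lower (-0.42), and those of SYCP3 share 14.8% with CHPT1, which was not called (0.05).

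Of the recombination members DMC1 and SPO11, only DMC1 was tested, and it was lower. DMC1, the meiosis-specific strand exchange recombinase, had 2.48, 3.17 and 2.89 CPM in DJL1 and 4.08, 4.02, 4.23 and 4.16 CPM in CTRL. The groups did not overlap, the log2 fold change was -0.54 ± 0.13 SE, adjusted p = 0.00333, and the gene remained called lower in each of 19 alternatives (-0.63 to -0.46). SPO11, the enzyme that makes the meiotic breaks, had 4 reads in DJL1, all in replicate 2, and 1 read in CTRL, in replicate 1.

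SPO11 and 4 other members did not pass the filter, which asked for at least 0.161 CPM in 3 libraries. ASZ1, a germ granule protein at the mitochondrial surface, had counts of 5, 0 and 8 in DJL1 and 11, 4, 1 and 6 in CTRL. RAD21L1, a meiotic kleisin, had 1, 7 and 4 in DJL1 and 4, 8, 6 and 9 in CTRL. SYCE3, a small central element protein, had 15, 6 and 0 in DJL1 and 9, 4, 3 and 5 in CTRL. HORMAD2, the relative of HORMAD1, had 6, 17 and 15 in DJL1 and 4, 6, 4 and 7 in CTRL, in DJL1 libraries with fewer reads in all. SYCE3 was called without DJL1 replicate 3 (log2 fold change 1.80, adjusted p = 0.0439), where it passed the filter through DJL1 alone. With no filter HORMAD2 was called higher (log2 fold change 2.08, adjusted p = 0.0161) and the other 4 were not (adjusted p = 0.276 to 0.948).

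Levels can be compared between genes per length of exon, here as CPM per kilobase of the exons of GENCODE 29. REC8 came out at 21.2 ± 1.87 in DJL1 and 21.7 ± 0.301 in CTRL, ahead of TDRD12 at 7.09 ± 0.520 in DJL1 and 5.07 ± 0.162 in CTRL, HORMAD1 at 6.96 ± 0.404 in DJL1 and 5.04 ± 0.319 in CTRL and TDRD7 at 5.92 ± 0.541 in DJL1 and 2.65 ± 0.149 in CTRL. MAEL stood at 4.84 ± 0.784 in DJL1 and 1.61 ± 0.105 in CTRL. PIWIL1, HORMAD2, ASZ1, RAD21L1 and SPO11 had the lowest levels in CTRL, at or under 0.0368 CPM per kilobase. The members stood at very different shares of their broadly expressed paralogs. PIWIL2 stood at 62% of the level of AGO2, an Argonaute of the microRNA pathway, in DJL1 and 21.8% in CTRL. Against AGO1 it stood at 33.2% in DJL1 and 9.66% in CTRL. These shares depend on the gene models, with 15833 exon bases for AGO2 and 5751 for PIWIL2. Before division by length PIWIL2 averaged 16.8 CPM and AGO2 74.5 CPM in DJL1, against 7.77 and 98.1 CPM in CTRL. REC8 reached 59.9% of the mitotic kleisin RAD21 in DJL1 and 58.4% in CTRL, whereas SMC1B reached 2.35% of SMC1A in DJL1 and 1.06% in CTRL. The Argonaute genes AGO1 (log2 fold change -0.67) and AGO2 (-0.40) were lower. RAD21, SMC1A, STAG1, STAG2 and MOV10 were not called, at log2 fold changes of -0.07 to 0.06.

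**Figure D4:**
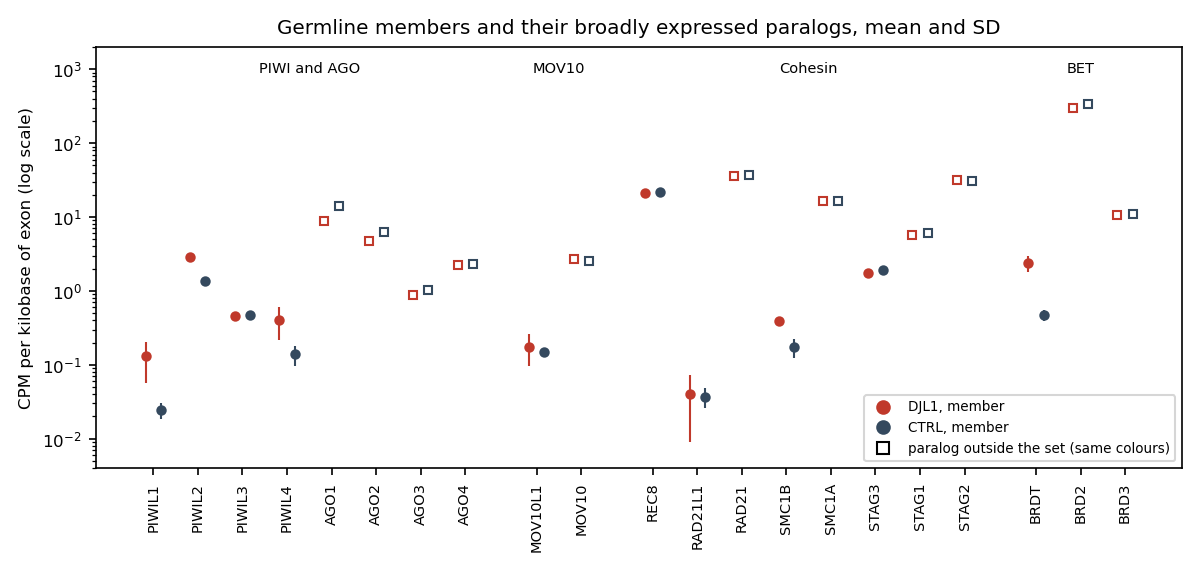
Mean level in CPM per kilobase of exon (log axis) with SD, DJL1 left of CTRL, for germline members (filled circles) and paralogs outside the set (open squares). PIWIL2 sits nearer to AGO2 in DJL1 than in CTRL, while REC8 stays close to RAD21 in both groups.

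Promoter windows were examined because many members moved together. RefSeq (GRCh38.p14) gives a window of 300 bases, 250 before and 50 after a gene's start, for 35 of the 40 members; PIWIL2, PIWIL3, PIWIL4, HORMAD1 and TEX15 have none in the table. In mouse embryonic stem cells germline genes are held down by a Polycomb complex (PRC1.6) that carries E2F6, which binds TCCCGC, and the MGA and MAX pair, which binds the E-box CACGTG. Both motifs were searched on both strands; CACGTG reads the same on either strand, and the motifs can overlap by 1 base. CACGTG was found for 10 of the 35 members (28.6%), against 11% of 16594 tested genes with a window and 8.77% of all 27305 genes with one. TCCCGC was found for 20 members (57.1%), against 42.3% of tested genes and 30.4% of all genes. Both lay in the same window for 6 members (17.1%), namely DAZL, MAEL, STAG3, STK31, SYCE1 and TDRD12, against 4.23% of tested genes. CACGTG was in 7 of 19 members called higher (36.8%) and in 3 of 11 tested members not called higher (27.3%), and TCCCGC in 11 of 19 (57.9%) and in 6 of 11 (54.5%). The windows of members held a median of 27 CG dinucleotides and 66.7% G and C, against 22 and 63.3% for windows of all tested genes. A match of letters is a description of these windows and no measure of binding.

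The windows printed here are those of the 4 members called higher that hold both motifs, with STAG3, which holds both and was not called, and DMC1, which holds neither and was lower. Capitals mark TCCCGC, its reverse complement GCGGGA, and CACGTG. MAEL is on the plus strand at chr1:166989030-166989329, DAZL on the minus strand at chr3:16604741-16605040, SYCE1 on the minus strand at chr10:133565534-133565833 and TDRD12 on the plus strand at chr19:32719517-32719816. STAG3 is on the plus strand at chr7:100177668-100177967 and DMC1 on the minus strand at chr22:38570134-38570433. The windows of TDRD12 and DMC1 are at the outermost annotated start of the gene, whereas those of MAEL, DAZL, SYCE1 and STAG3 belong to an alternative start inside the gene. The windows at the outermost starts of these 4 genes are not printed; that of STAG3 holds both motifs, those of MAEL and SYCE1 hold TCCCGC or its reverse complement alone, and that of DAZL holds neither.
MAEL: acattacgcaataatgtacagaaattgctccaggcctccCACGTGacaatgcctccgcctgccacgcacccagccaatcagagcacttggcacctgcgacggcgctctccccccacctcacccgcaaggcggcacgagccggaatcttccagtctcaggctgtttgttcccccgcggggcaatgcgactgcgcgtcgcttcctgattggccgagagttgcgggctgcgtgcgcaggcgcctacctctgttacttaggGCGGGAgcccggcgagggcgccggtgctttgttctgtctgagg
DAZL: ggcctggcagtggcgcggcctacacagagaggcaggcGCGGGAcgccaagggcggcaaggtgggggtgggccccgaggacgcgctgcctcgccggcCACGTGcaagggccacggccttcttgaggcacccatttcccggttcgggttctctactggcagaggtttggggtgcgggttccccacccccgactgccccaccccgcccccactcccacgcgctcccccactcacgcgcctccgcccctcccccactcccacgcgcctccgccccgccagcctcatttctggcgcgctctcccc
SYCE1: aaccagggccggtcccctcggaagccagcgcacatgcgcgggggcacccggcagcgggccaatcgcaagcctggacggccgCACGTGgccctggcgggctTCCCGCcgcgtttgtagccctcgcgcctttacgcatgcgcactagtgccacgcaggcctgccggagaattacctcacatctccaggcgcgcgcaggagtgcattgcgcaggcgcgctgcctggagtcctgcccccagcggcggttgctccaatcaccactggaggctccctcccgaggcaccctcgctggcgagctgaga
TDRD12: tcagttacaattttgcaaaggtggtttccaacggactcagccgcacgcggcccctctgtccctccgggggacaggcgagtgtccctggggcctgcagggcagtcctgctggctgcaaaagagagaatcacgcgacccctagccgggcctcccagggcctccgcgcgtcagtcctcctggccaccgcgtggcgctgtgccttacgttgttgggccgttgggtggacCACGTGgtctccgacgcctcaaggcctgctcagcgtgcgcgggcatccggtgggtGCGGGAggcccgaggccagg
STAG3: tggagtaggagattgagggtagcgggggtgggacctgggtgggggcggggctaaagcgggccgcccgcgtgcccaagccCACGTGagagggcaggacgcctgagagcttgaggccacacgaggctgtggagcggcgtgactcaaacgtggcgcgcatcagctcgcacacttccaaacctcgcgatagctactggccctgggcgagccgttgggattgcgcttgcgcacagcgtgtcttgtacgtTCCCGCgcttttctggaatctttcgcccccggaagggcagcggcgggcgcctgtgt
DMC1: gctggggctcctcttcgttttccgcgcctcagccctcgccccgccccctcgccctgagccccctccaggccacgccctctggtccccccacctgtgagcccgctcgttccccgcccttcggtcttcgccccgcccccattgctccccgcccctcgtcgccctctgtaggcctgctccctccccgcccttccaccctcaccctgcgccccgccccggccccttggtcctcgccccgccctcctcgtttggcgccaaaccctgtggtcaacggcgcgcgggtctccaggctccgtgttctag
The 4 windows of the higher members have the motifs at different places. In TDRD12 both lie toward the 3′ end of the window, nearest its start site, and in DAZL both lie toward its 5′ end. In SYCE1 the motifs are close neighbours, and in MAEL they are at opposite ends.

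Further genes of the 2 programmes, from lists drawn up by function, behaved differently from each other. Of 19 tested genes of the piRNA pathway outside the 40, 11 were higher and 4 lower, with a median log2 fold change of 0.40. The members of that list with the smallest adjusted p were DNMT3L, a cofactor of de novo DNA methylation in germ cells (0.93), MYBL1, which in mouse drives piRNA precursor transcription (0.97), TEX19 (1.75) and PRMT5, the methyltransferase that modifies PIWI proteins (-0.43). DDX4, the germ cell helicase VASA, was also higher, at 1.15 ± 0.442 CPM (SD, n = 3) in DJL1 and 0.451 ± 0.112 CPM (SD, n = 4) in CTRL. It stands outside the naming rule of that list and was chosen after its values were seen. Of 40 tested meiosis genes outside the 40 members, 11 were higher and 12 lower, with a median of 0.20, a share of higher calls (27.5%) close to the 27% of all genes. HSPA2 (0.77), MEI4 (1.03), CCNA1 (2.07) and TEX14 (1.01) had the smallest adjusted p.

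Repressors of germline genes were lower more often than higher. Of 23 genes of PRC1.6, of the SETDB1 pathway and of DNA methylation, 11 were lower (47.8%, against 25.1% of all tested genes) and 6 higher (26.1%, near the 27% of all genes), with a median log2 fold change of -0.13. All apart from YAF2 averaged above 8 CPM, a level at which 42.3% of all genes were called lower and 27.3% higher. The share of lower calls was thus near that of genes at the same level. The de novo methyltransferase genes DNMT3B (1027 ± 116 CPM in DJL1 and 1824 ± 19.2 CPM in CTRL, log2 fold change -0.83) and DNMT3A (-0.44) and the maintenance cofactor UHRF1 (-0.39) were lower, and the Polycomb subunit RYBP (0.49) was higher. E2F6 (0.21), MGA (0.20) and MAX (0.21), the factors named above for the motifs, were also called higher. They stand outside the naming rule of that list and were chosen after their values were seen. Whether the genes of this list bear on the members' levels was not tested. Among 18 markers of primordial and later germ cells outside the 40 members, 11 were higher (61.1%, against 27% of all tested genes). In the other direction 3 were lower (16.7%, against 25.1%), and the median was 0.65. The lists share genes: DDX4 is also in the piRNA list above, and POU5F1 and NANOG are also pluripotency markers. DNMT3B is both in the repressor list and among the pluripotency markers. PRDM1 (1.61), SOX17 (2.56) and GFRA1 (2.31) were higher and PDPN (-0.63) was lower.

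Markers of other cell types moved with the group. Their counts stand beside 27% of all tested genes called higher and 25.1% called lower. Of 13 fibroblast and feeder markers 10 were tested, 8 were higher and 0 lower, and their summed level was 835 to 958 CPM in DJL1 and 549 to 568 CPM in CTRL. None of the 13 was at 0 in all libraries of a group, while the fibroblast genes DCN and LUM were near 0. On average DCN was at 0.0571 CPM in DJL1 and 0.0111 CPM in CTRL and LUM at 0.119 CPM in DJL1 and 0.0227 CPM in CTRL. All 6 DJL1 reads of DCN were in replicate 2, and all 6 CTRL reads of LUM were in replicate 4. COL1A1 had a log2 fold change of 1.01, TWIST2 of 1.09, TWIST1 of 0.51 and COL1A2 of 0.39. Of the 12 pluripotency markers 0 were higher and 10 lower, among them DPPA4 (-0.66), TDGF1 (-0.63) and PODXL (-0.63). All 12 averaged above 8 CPM, a level at which 42.3% of all genes were called lower. The part of these markers in the members' differences was not tested. Spermatid markers summed to 3.42 to 4.96 CPM in DJL1 and 4.54 to 6.18 CPM in CTRL, and these sums overlapped.

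The members' differences were spread over the DJL1 libraries. Replicates 1, 2 and 3 held the highest of the 3 DJL1 values for 13, 13 and 9 of the 35 tested members, and the lowest for 12, 7 and 16. The median log2 ratio of the members to the CTRL mean was 0.98, 0.85 and 0.54 in DJL1 replicates 1, 2 and 3. The coefficient of variation within a group was a median of 16.2% in DJL1 and 12% in CTRL over the tested members, against 13% in DJL1 and 7.3% in CTRL over all tested genes. The authors' deposited table of their own comparison lists 30 of the 40 members, 21 higher and 1 lower at an adjusted p of 0.05. For all 30 the direction and the call were those found here, and the authors' deposited table and these log2 fold changes differed by at most 0.166.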

How the data were processed

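RNA of 3 DJL1 and 4 CTRL libraries was sequenced after poly(A) selection with a directional kit, per the labels' protocols. Tools in the submitters' processing notes are HISAT2 2.2.1, Trim Galore 0.4.0 and featureCounts with Subread 1.5.0, and the builds are GRCh38 and hg38. The strand setting is not given in the sources used here. Raw counts per gene symbol were used as deposited by the authors. Of the authors' deposited comparison, log2 fold changes and adjusted p-values were copied for the members, and its t and log-odds scores were not used. The authors' deposited log2-type values were not used, since their base and scaling are not stated.

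Counts were tested in R 4.3.3 with edgeR 4.0.16 (TMM, filterByExpr with a minimum count of 10 and total of 15, robust quasi-likelihood fit, DJL1 over CTRL, Benjamini-Hochberg adjustment over 26062 genes, threshold 0.05). Printed CPM are TMM-scaled. The fit was tested on simulated data. Alternatives were DESeq2 1.42.0, limma-voom (limma 3.58.1), other scalings, filters and thresholds, thinning, a replicate block, and each library left out. Replicates differed by more than sampling noise (chi-square over degrees of freedom 2.80 to 12.7). Lengths and overlaps came from GENCODE 29, and windows from RefSeq GRCh38.p14, read with Python 3.11.15. The labels mention cell sorting while the design text describes direct RNA processing. Floors cover counting error only.

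The members and lists were chosen with earlier results of these data known. Values per library are printed for called members whose mean reached 1 CPM in a group or with an absolute log2 fold change of at least 1, other tested members are given with values, and untested members as counts. Of each other list up to 4 called genes with the smallest adjusted p are named, with paralogs of the members described. Among the exceptions are DDX4, E2F6, MGA and MAX, chosen after their values were seen.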

Additional observations from a re-analysis of the deposited data

Results flagged for a closer look

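In 3 of the 41 sets of CTRL values examined, 1 library lay far from the other 3, a gap that chance gives in about 1 of 20 such sets. TDRD6 was at 1.25 CPM in CTRL replicate 2, against 1.97 to 2.06 CPM in the other CTRL libraries. TDRD9 was at 0.515 CPM in CTRL replicate 4, against 0.706 to 0.723 CPM in the others. TEX15 was at 22.8 CPM in CTRL replicate 2, against 24.6 to 24.9 CPM in the others. TDRD6 and TDRD9 were called higher in DJL1 with each CTRL library left out, and TEX15 was not called in any of those settings. Groups of 3 are too small for this rule, so the DJL1 libraries were not examined.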

How the results depend on the processing

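The 22 members called higher kept that call in every alternative in which they were tested, the depth-matched counts included. The stricter filter left PIWIL1, PIWIL4 and STRA8 untested and thinning left PIWIL1 and STRA8 untested, for 19 and 20 members higher. With no filter, and without DJL1 replicate 1, HORMAD2 was added (23 higher). Without DJL1 replicate 1 it passed the filter through the remaining DJL1 libraries alone. Over the libraries left out in turn, 22 to 25 members were higher and 1 to 4 lower. The count of members lower was 2 with no filter (SYCE2 added) and also 2 when only protein-coding genes were tested (STAG3 added), a setting chosen after seeing the data. The members' median log2 fold change ran from 0.72 to 0.93. Of 652 values of single genes under alternatives 639 stayed on their side of the threshold and of 0, 9 became calls and 4 changed sign. Those 4 were not called in the full fit. Over all alternatives their log2 fold changes ran from -0.13 to 0.0088 for PIWIL3 and from -0.20 to 0.44 for MOV10L1. For REC8 they ran from -0.12 to 0.0051 and for SYCP1 from -0.0988 to 0.32. PIWIL3 changed sign without CTRL replicate 1, and MOV10L1, REC8 and SYCP1 changed sign without DJL1 replicate 1. The cause was not tested. With the replicate block, 22 members were higher and 1 lower (median 0.75), and 5863 genes were higher and 5614 lower over all. Libraries that share a number did not deviate together (r = -0.0089, -0.0388 and -0.0249 across genes). A pairing that touches few genes would not show in these values, so whether the numbers pair the samples is not settled. Depth limits the members under 1 CPM, where a few reads set the values.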

Other observations

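Markers of 2 further cell types also differed, beside 27% of all tested genes called higher and 25.1% called lower. Of 8 multiciliated cell markers 5 were higher and 0 lower in DJL1, among them CFAP43 (log2 fold change 1.65), FOXJ1 (1.06), MCIDAS (1.05) and TPPP3 (0.56), and their summed level was 28.5 to 34.8 CPM in DJL1 and 20.01 to 21.2 CPM in CTRL. Of 10 testis somatic cell markers 8 were tested, 3 were higher (WT1 2.06, SOX9 1.09 and INHA 0.84) and 1 was lower (AMH -1.12). Their summed level was 59.7 to 62.9 CPM in DJL1 and 80.4 to 87.8 CPM in CTRL. AMH weighed most in that sum, at 30.5 CPM in DJL1 and 66.5 CPM in CTRL on average. The log2 fold change was positive for 7 of the 8 tested markers. Among 5 tested spermatid markers AKAP4 was higher (log2 fold change 3.55, with 32 reads in DJL1 and 6 in CTRL) and SPACA4 was lower (-1.30). AKAP4 passed the filter through its DJL1 libraries alone and so could hardly be called other than higher.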
